A study of Homo sapiens with 4 samples.

Results

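The libraries numbered 1 were compared with the libraries numbered 2 in an ATAC-seq experiment on SEM, a leukemia cell line of B cell precursor type with rearranged MLL (KMT2A). All 4 libraries of the series entered the comparison, 2 with each number, and the number was read from the end of the sample titles. All cells expressed dCas9-KRAB with a blasticidin resistance gene, and the guide RNA was either sgFLT3-DE-1, which targets a distal enhancer of FLT3 inside the PAN3 gene, or the non-target control sgNT. Each guide had 1 library of each number, and the guide was a term in every fit unless stated otherwise. The labels do not say what the number marks, and they do not say whether libraries came from separate cultures, so p-values here describe only how these 4 libraries scatter, which can be of technical origin. The 4 libraries share 1 cell line and the same introduced repressor, so no statement here reaches beyond these cells.

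ATAC-seq uses the transposase Tn5 to cut and tag DNA that is not wrapped tightly in nucleosomes, and counts of tagged fragments over a peak measure how accessible it is. Mammalian genomes are organised in long stretches of differing base composition: GC-rich stretches are dense in genes and replicate early, and AT-rich stretches are poor in genes and replicate late. Promoters of widely used genes mostly lie in CpG islands, and CTCF is a zinc finger protein that binds a long motif and holds chromatin loops together with cohesin.

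Counts over 139872 consensus peaks summed to 3670758 and 4831164 in sgFLT3-DE-1 replicates 1 and 2 and to 3321429 and 2683477 in sgNT replicates 1 and 2. The deeper library was therefore numbered 2 with sgFLT3-DE-1 and 1 with sgNT, so the total did not run with the number. The 1000 tallest peaks held 11.03% and 10.6% of counts in the replicate 1 libraries and 8.49% and 8.97% in the replicate 2 libraries. The part of this difference in the results below was not tested. Of the B cell precursor markers 11 of 12 had a promoter peak, against 6 of 12 T and NK cell, 7 of 12 myeloid and 5 of 12 erythroid and megakaryocyte markers.

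With edgeR's quasi-likelihood test, 7338 of 82558 tested peaks differed by number (8.89%, false discovery rate, FDR, 0.05). Of these, 3839 were higher in the replicate 1 libraries (4.65% of tested peaks) and 3499 in the replicate 2 libraries (4.24%). The guide in the same fit gave 74 peaks (0.0896%), of which 13 also differed by number. Differences below are log2 values, replicate 1 minus replicate 2, so a negative value means higher in the replicate 2 libraries. The fit leaves 1 residual degree of freedom, and DESeq2 called 1 peak, with 1629 peaks at an unadjusted p under 0.05 against 20222 by edgeR. An exact permutation of 2 libraries against 2, without regard to the guide, cannot give a two-sided p below 0.33. Permuting within guides allows fewer arrangements still, so no single value could pass such a test.

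The sequences of 6 peaks away from promoters are given as examples from either side. They were taken, in order of p, from the intronic or intergenic peaks that are up to 300 bp long and did not differ by guide, and those with a CTCF motif, all on the plus strand of GRCh37 (hg19). The first 2 were higher in the replicate 1 libraries and the next 2 in the replicate 2 libraries, with CpG dinucleotides in capitals.
Intergenic, 493845 bp from the nearest coding start (POT1), in the noncoding gene POT1-AS1, chr7:125063882-125064140: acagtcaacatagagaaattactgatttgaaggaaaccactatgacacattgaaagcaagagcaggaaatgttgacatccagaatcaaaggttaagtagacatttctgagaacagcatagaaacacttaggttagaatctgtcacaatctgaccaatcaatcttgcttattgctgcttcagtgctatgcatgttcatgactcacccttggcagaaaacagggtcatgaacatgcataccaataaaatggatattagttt
Intergenic, 759726 bp from the nearest coding start (CHORDC1), chr11:90715971-90716264: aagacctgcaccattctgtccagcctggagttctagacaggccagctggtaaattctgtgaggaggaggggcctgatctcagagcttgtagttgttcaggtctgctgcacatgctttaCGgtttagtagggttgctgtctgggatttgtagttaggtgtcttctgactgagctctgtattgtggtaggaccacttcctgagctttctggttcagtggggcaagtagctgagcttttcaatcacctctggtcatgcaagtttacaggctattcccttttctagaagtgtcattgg
Intergenic, 19334 bp from the nearest coding start (CARD10), chr22:37934883-37935138: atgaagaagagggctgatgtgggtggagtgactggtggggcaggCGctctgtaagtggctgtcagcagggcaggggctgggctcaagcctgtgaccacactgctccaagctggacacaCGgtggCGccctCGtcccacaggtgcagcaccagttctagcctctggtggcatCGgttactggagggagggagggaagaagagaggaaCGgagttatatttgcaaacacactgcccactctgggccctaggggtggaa
Intron of MXRA7, chr17:74674544-74674830: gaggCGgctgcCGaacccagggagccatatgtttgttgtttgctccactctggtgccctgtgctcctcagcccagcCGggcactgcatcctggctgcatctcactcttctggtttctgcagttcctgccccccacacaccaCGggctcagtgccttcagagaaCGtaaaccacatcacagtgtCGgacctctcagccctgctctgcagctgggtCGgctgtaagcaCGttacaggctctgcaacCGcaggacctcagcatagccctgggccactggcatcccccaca
The peaks of the first kind held 0 and 1 CpG and lay in 1 Mb windows of 34.9% and 35.2% GC. Both of the second kind, with 6 and 9 CpG, lay in windows of 51.8% and 50.5% GC. Because promoters were left out, the CpG counts do not describe all called peaks. CpG-rich coding promoters were 16.4% of tested peaks. They made up 24.0% of those higher in the replicate 1 and 16.7% of those higher in the replicate 2 libraries. A further pair, also higher in the replicate 2 libraries, is shown with the CTCF motif match in capitals.
Intron of LRP5, chr11:68214754-68214953, match on the minus strand: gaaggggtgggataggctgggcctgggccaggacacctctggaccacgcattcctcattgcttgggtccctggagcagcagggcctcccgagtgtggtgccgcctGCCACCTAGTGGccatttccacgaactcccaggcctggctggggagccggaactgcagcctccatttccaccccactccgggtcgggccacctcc
Intergenic, 29917 bp from the nearest coding start (TMEM63B), chr6:44064532-44064734, match on the plus strand: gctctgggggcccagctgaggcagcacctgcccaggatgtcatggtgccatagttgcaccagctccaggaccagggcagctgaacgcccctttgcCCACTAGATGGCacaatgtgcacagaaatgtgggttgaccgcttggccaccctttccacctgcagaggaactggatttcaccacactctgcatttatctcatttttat

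The peak in POT1-AS1 had counts of 147 and 116 in the replicate 1 libraries (sgFLT3-DE-1, then sgNT) and 89 and 66 in the replicate 2 libraries. Both replicate 1 libraries lay above both replicate 2 libraries, at 45.4 and 38.8 against 19.7 and 26.4 normalised counts (CPM, after TMM factors). The difference was 0.92 (SE 0.16, adjusted p = 3.29e-05). The LRP5 intron peak, in the gene of a Wnt co-receptor, went the other way, with counts of 9 and 5 against 51 and 20 and a difference of -2.09 (SE 0.39, adjusted p = 5.76e-05). The TMEM63B peak had 8 and 4 against 44 and 19 counts (-2.15, SE 0.41, adjusted p = 9.58e-05).

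The difference followed broad regions of the genome. Chromosomes 17, 22 and 19, which are short and rich in genes, had the lowest medians, at -0.51, -0.51 and -0.49, and chromosomes 4 and X the highest, at 0.24 and 0.23. On chromosome 17, 399 of 2351 tested peaks were higher in the replicate 2 libraries and 6 in the replicate 1 libraries. On chromosome 4 the counts were reversed, with 482 of 5425 higher in the replicate 1 libraries and 52 in the replicate 2 libraries. The medians of all 23 chromosomes described had the same sign with both guides, 13 below and 10 above 0. Chromosome 19 came to -0.54 for sgFLT3-DE-1 but -0.35 for sgNT.

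**Figure D1:**
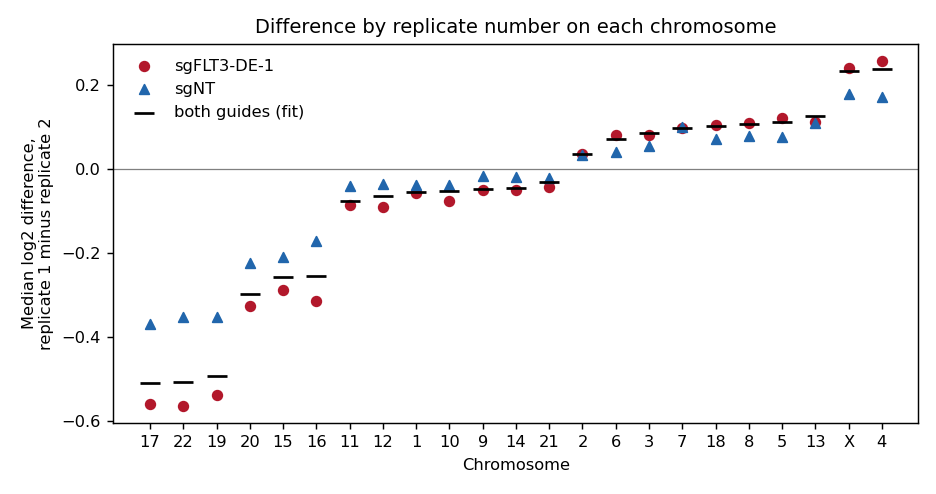
Median log2 difference, replicate 1 minus replicate 2 (vertical axis), of the tested peaks on each chromosome (horizontal axis, in order of the fitted median), with circles for sgFLT3-DE-1, triangles for sgNT and bars for the fit to both guides. Chromosomes 17, 22 and 19 lie lowest and chromosomes 4 and X highest with both guides.

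The raw shares show the same without any scaling factor. Peaks on chromosomes 17, 19 and 22 held 3.77% of counts in sgFLT3-DE-1 replicate 1 and 5.56% in replicate 2, and 4.56% and 5.90% in the sgNT libraries. Chromosome 4 held 8.37% and 7.98% in the replicate 1 libraries and 7.16% and 7.18% in the replicate 2 libraries. Both replicate 1 libraries were thus below both replicate 2 libraries on the first group of chromosomes and above them on chromosome 4.

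Regional GC content ordered the peaks most clearly. Tested peaks were divided into quintiles by the GC content of the 1 Mb window that holds them. In the lowest quintile (33.5% to 37.8% GC) the median difference was 0.43, and 15.3% of peaks were higher in the replicate 1 libraries against 0.0242% in the replicate 2 libraries. In the highest quintile (45.5% to 59.1% GC) the median was -0.46, with 0.0485% and 14.9%. The medians between them were 0.19, -0.01 and -0.22. The lowest quintile came to 0.49 for sgFLT3-DE-1 but 0.29 for sgNT, and the highest -0.51 and -0.33. Peaks in the lowest quintile held 26.1% and 23.4% of counts in the replicate 1 libraries and 19.3% and 19.3% in the replicate 2 libraries. Peaks in the highest quintile held 12.5% and 14.9% against 18.3% and 18.9%.

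Gene density gave a similar order. Peaks with up to 2 protein-coding genes within 500 kb had a median of 0.35, and those with 14 or more a median of -0.42. Per peak, the difference had a Spearman correlation of -0.64 with regional GC content, -0.53 with gene density and -0.30 with the peak's own GC content (n = 82558 peaks, which share libraries and neighbours and are not independent).

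Over the 2027 windows of 1 Mb with at least 20 tested peaks, the median difference of one guide's libraries followed that of the other, with a Pearson correlation of 0.92 across windows. The guides shared no library, but all windows share the 4 libraries and neighbouring windows are not independent. Of these windows 954 were above 0 with both guides, 876 below 0 with both and 197 of opposite sign. Single peaks were noisier, with a Pearson correlation of 0.40 over all tested peaks and 0.59 over the tallest quintile. Window medians ran from -0.88 to 0.71.

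**Figure D2:**
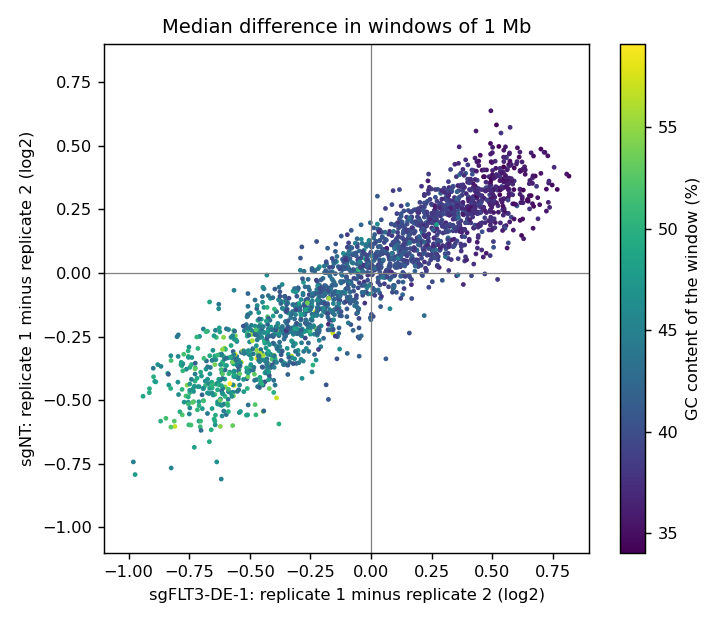
Each point is 1 of 2027 windows of 1 Mb, at the median log2 difference (replicate 1 minus replicate 2) of its peaks with sgFLT3-DE-1 (horizontal axis) and with sgNT (vertical axis), coloured by the GC content of the window in percent. GC-rich windows lie at the lower left and GC-poor windows at the upper right, and 197 windows have opposite signs.

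The lowest window, chr19:15000001-16000000, holds the promoters of AKAP8, AKAP8L, WIZ, ILVBL and RASAL3. Its median was -0.97 for sgFLT3-DE-1, -0.79 for sgNT, and 9 of its 20 tested peaks were higher in the replicate 2 libraries. The window with the second lowest median, chr19:10000001-11000000, holds 27 genes with a promoter peak, among them DNMT1, the maintenance DNA methyltransferase, KEAP1, a sensor of oxidative stress, CARM1, an arginine methyltransferase, and the cell adhesion gene ICAM1 (median -0.82, 11 of 50 peaks). Window chr22:39000001-40000000 holds the cytidine deaminase genes APOBEC3B, APOBEC3C, APOBEC3F and APOBEC3G, the stress factor ATF4 and the Polycomb genes CBX6 and CBX7 (median -0.80, 17 of 42 peaks). At the other end, chr4:172000001-173000000 around GALNTL6 had a median of 0.71, with 0.73 for sgFLT3-DE-1 and 0.46 for sgNT, and chr1:103000001-104000000 around the collagen gene COL11A1 one of 0.66. None of the peaks in these 5 windows was called against the direction of its window's median.

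The GC content of the peak itself ordered the differences less evenly. The decile of lowest GC had a median of 0.28, the eighth decile (55.9% to 61.4%) one of -0.26 and the highest decile (68.8% and over) one of -0.10. Within the GC-poorest regions the peak's own GC mattered little: the medians of the 5 quintiles of peak GC lay between 0.40 and 0.44. In the GC-richest regions they were -0.56, -0.53, -0.56, -0.54 and, for the most GC-rich peaks, -0.36.

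**Figure D3:**
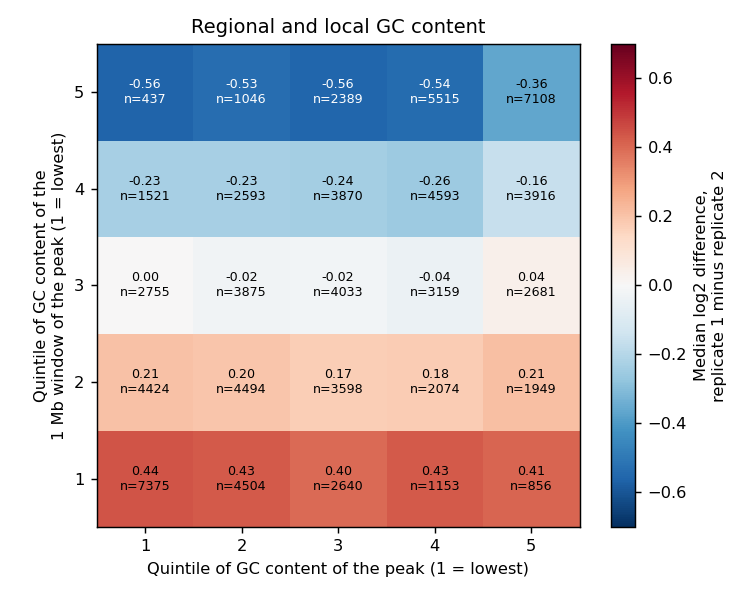
Median log2 difference, replicate 1 minus replicate 2 (colour and upper number), for quintiles of the GC content of the peak (horizontal axis) and of its 1 Mb window (vertical axis), with the number of tested peaks in each cell. Values change from 0.44 to -0.56 along the vertical axis and by less along the horizontal axis.

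By position, peaks more than 200 kb from any protein-coding gene start had the highest median, 0.38 (0.42 with sgFLT3-DE-1 and 0.24 with sgNT). They made up 11.4% of tested peaks, 29.1% of those higher in the replicate 1 libraries and 0.743% of those higher in the replicate 2 libraries. Exonic peaks had the lowest, -0.24, and intergenic peaks within 50 kb of a start had -0.14. Intronic peaks, at -0.02, and peaks within 1 kb of a coding start, at -0.08, lay near the median of all tested peaks. Coding promoters were called in both directions, 5.77% higher in the replicate 1 and 5.15% in the replicate 2 libraries, against 4.65% and 4.24% of all tested peaks. The directions separated by region: in the GC-poorest quintile 34.2% of coding promoter peaks were higher in the replicate 1 libraries and 0 in the replicate 2 libraries, and in the GC-richest quintile 0.0810% and 11.7%. Promoters and other peaks of the same window moved together, with a Pearson correlation of 0.88 between their medians over 664 windows.

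Promoters were also set against their neighbours. Each peak was compared with the median of the other tested peaks within 500 kb, where there were at least 10. Coding promoters had a median of 0.09 above their neighbours, CpG-rich coding promoters one of 0.12, coding promoters that are not CpG-rich one of -0.02 and noncoding promoters one of 0.00. The coding promoter median was -0.12 for sgFLT3-DE-1 and -0.01 for sgNT, and it turned to 0.04 after offsets fitted to peak GC content and to 0.02 without sgFLT3-DE-1 replicate 1, so no direction is given for promoters as a class.

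Of the 23 motif classes, peaks with a CTCF motif departed most from their surroundings. The motif was present, on either strand, in 3.59% of all consensus peaks and in 3338 tested peaks. Their median was -0.24, with -0.24 for sgFLT3-DE-1 and -0.22 for sgNT. They made up 4.04% of tested peaks, 1.07% of those higher in the replicate 1 libraries and 8.17% of those higher in the replicate 2 libraries. Against the neighbours within 500 kb the median was -0.21, while those of the other 22 motifs searched lay between -0.01 and 0.19. CTCF motif peaks held 2.42% and 2.41% of counts in the replicate 1 libraries and 2.88% and 2.78% in the replicate 2 libraries.

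The lower difference at CTCF motif peaks was seen across regional GC content. In the GC-poorest quintile the median was 0.26 with the motif and 0.43 without, and in the GC-richest -0.75 and -0.45. It was also seen across positions, with -0.27 against -0.02 in introns and 0.21 against 0.39 beyond 200 kb. It was smaller in tall peaks, at 0.05 against 0.13 in the tallest quintile and -0.44 against -0.06 in the lowest quintile. Where the mean count was 50 or more, the median of CTCF motif peaks was -0.10, with no value taken for peaks without the motif.

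**Figure D4:**
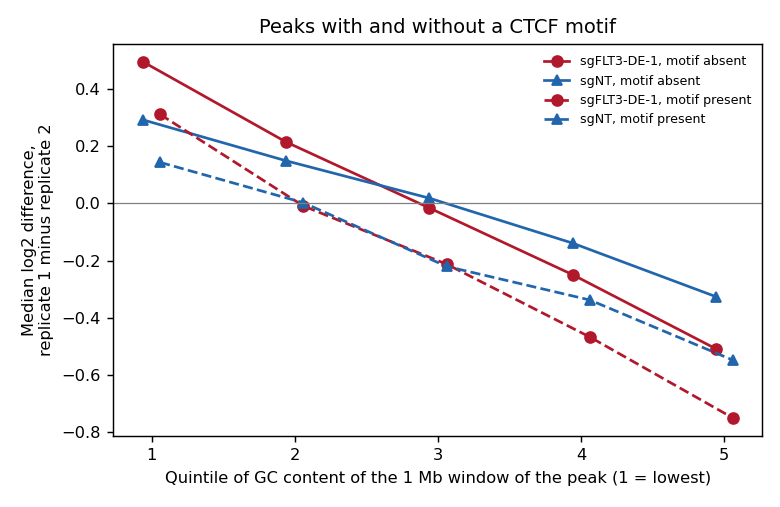
Median log2 difference, replicate 1 minus replicate 2 (vertical axis), of peaks without (solid lines) and with (dashed lines) a CTCF motif, by quintile of the GC content of their 1 Mb window (horizontal axis), with circles for sgFLT3-DE-1 and triangles for sgNT. For each guide the dashed line lies below the solid line in all 5 quintiles.

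The HOX-PBX motif (TGATTTAT, in 1.09% of consensus peaks), of interest in MLL-rearranged cells because HOXA9 binds with PBX and MEIS partners, had a median of 0.18 and stood 0.03 above its neighbours. RUNX (TGTGGTTT, 7.63%) had 0.09 and stood 0.02 above, and AP-1 (TGANTCA, 11.9%) had 0.05 and 0.01. Motifs of CpG island promoters were near or below 0 but higher than their surroundings: SP/KLF (GGGGCGGGG, 4.11%) had a median of -0.06 and stood 0.17 above its neighbours, NRF1 (CGCATGCG, 0.513%) -0.01 and 0.19, NFY (CCAATCAG, 1.49%) 0.02 and 0.14, ETS (CCGGAAG, 3.38%) -0.11 and 0.10 and CREB/ATF (TGACGTCA, 0.508%) -0.04 and 0.17. All motifs were searched on both strands. They can overlap one another, and a match is a run of letters, not a bound site.

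By height, the difference had a median of 0.13 in the tallest quintile and -0.07 in the lowest. Of the tallest quintile, 15.7% were called higher in the replicate 1 and 4.20% in the replicate 2 libraries. Calls higher in the replicate 1 libraries had a median mean level of 28.2 CPM and a median difference of 0.63, and those higher in the replicate 2 libraries 8.68 CPM and -1.07, against 7.40 CPM for all tested peaks. Requiring a difference of at least 1 on the log2 scale left 612 peaks higher in the replicate 1 and 1964 in the replicate 2 libraries. Scaling by total counts alone changed the split to 2520 and 4740. Both replicate 1 libraries lay above or below both replicate 2 libraries by CPM in 50.5% of tested peaks and in 7235 of the 7338 called. Among called peaks 7300 had the same sign with both guides, against 65.8% of all tested peaks, but calls rest on the difference over both guides, which favours equal signs.

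When each library was adjusted for regional GC content by a smooth curve, 1302 peaks were called (1.58%), 1016 higher in the replicate 1 and 286 in the replicate 2 libraries, of which 733 were among the 7338. Of the 1016, 59.4% lay at coding promoters and 83.7% in the tallest quintile of peaks. Coding promoters made up 22.0% of tested peaks and 27.3% of the 3839 called before adjustment, and the tallest quintile held 67.6% of those 3839. Of 18160 tested coding promoter peaks, 603 were higher in the replicate 1 and 66 in the replicate 2 libraries after adjustment. The curve was fitted to regional GC content, so it brings the medians of the regional GC quintiles near 0 by construction. That of the GC-poorest regions moved from 0.43 to 0.03 and that of the GC-richest from -0.46 to -0.03. The median of CTCF motif peaks, to which the curve was not fitted, moved from -0.24 to -0.21. This adjustment was added after the regional pattern had been seen.

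The 10 peaks of smallest p that were higher in the replicate 1 libraries fell into 2 kinds. The first 4 also differed by guide: peaks at EEF1A1, which encodes a translation elongation factor, at the 3' side of HBB, the beta-globin gene, at the U6 small nuclear RNA gene RNU6-1 and in an intron of TBC1D5. At EEF1A1, counts were 7355 and 2053 in the replicate 1 and 5360 and 579 in the replicate 2 libraries, and the replicate groups overlapped, since sgNT replicate 1 (686 CPM) lay below sgFLT3-DE-1 replicate 2 (1185 CPM). The difference by number was 1.22 (SE 0.11, adjusted p = 2.72e-22) and that by guide 2.02. At HBB the difference was 1.27 for sgFLT3-DE-1 but 0.38 for sgNT. At the RNU6-1 peak, the one call by DESeq2 (adjusted p = 0.00761), counts were 1526 and 369 against 1006 and 184. The U6 promoter drives guide RNAs in common lentiviral vectors. At none of the 4 peaks can counts from native DNA be told apart from those of any introduced copies. Whether such copies contributed was not tested. Without sgFLT3-DE-1 replicate 1 and with the number as the only term, all 4 differences turned below 0, from -0.07 at EEF1A1 to -1.35 at HBB. That fit lacks the guide, by which these peaks differ. Between the 2 sgNT libraries the differences were 1.56, 0.38, 0.74 and 2.07, in the order named.

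The other 6, of which 5 are described, did not differ by guide and lay in GC-poor windows. The IQUB promoter peak, of a ciliary protein gene, had 183 and 173 CPM in the replicate 1 libraries and 100.4 and 107 in the replicate 2 libraries (0.79, SE 0.11, adjusted p = 9.46e-08). POT1, which encodes a shelterin protein of telomeres, had 255 and 208 against 133 and 144 CPM (0.75, SE 0.11, adjusted p = 2.01e-07). The promoter of ADGRB3, an adhesion receptor gene of the brain, had 127 and 127 against 72.7 and 73.7 CPM. In each case the replicate groups did not overlap, as in 50.5% of tested peaks. After adjustment for regional GC content the differences were 0.45, 0.34 and 0.32, and all 3 passed. The remaining ones were a peak 41775 bp from the start of the synaptic gene NLGN1 (1.11) and a peak 622414 bp from the start of BRINP3 (0.85). The BRINP3 peak did not pass after the adjustment (0.29, adjusted p = 0.199).

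The 10 peaks of smallest p on the other side lay in windows of 46.7% to 51.8% GC. The NEK4 intron peak had 12.97 and 13.4 CPM in the replicate 1 and 28.5 and 32.4 in the replicate 2 libraries (-1.20, SE 0.20, adjusted p = 6.54e-06). At the promoter of PFDN5, which encodes a subunit of the prefoldin chaperone, counts were 12 and 13 against 61 and 38 (-1.83, SE 0.31, adjusted p = 9.47e-06). At the promoter of CD68, a lysosomal glycoprotein gene known as a macrophage marker, they were 18 and 19 against 79 and 43 (-1.55). The WDR74 promoter peak also lies at a U2 small nuclear RNA copy, RNU2-2P, and reads of such repeated genes may be shared, so its difference of -0.86 is uncertain. The others were peaks near CARD10, CYP4F22 and NDUFV1, in an intron of MXRA7 and at the promoters of COQ10A and CYB561D1, with differences from -1.64 to -1.02. In all 10 both replicate 1 libraries lay below both replicate 2 libraries, as did the groups of 50.5% of tested peaks in one direction or the other.

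**Figure D5:**
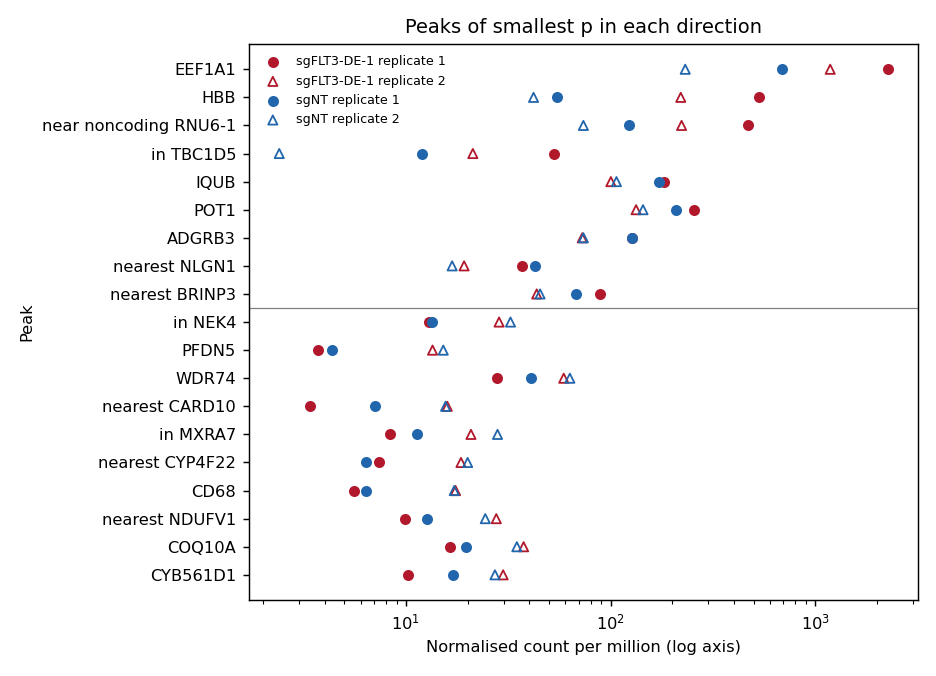
Normalised counts (CPM, log axis) in the 4 libraries for the described peaks of smallest p, 9 higher in the replicate 1 and 10 in the replicate 2 libraries, with filled circles for replicate 1, open triangles for replicate 2, red for sgFLT3-DE-1 and blue for sgNT. Above the line, peaks higher in the replicate 1 libraries, of which the top 4 also differ by guide. Below the line, filled circles lie left of both triangles in every row.

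Further promoters higher in the replicate 1 libraries with both guides were those of MANEA, SPCS3, COX7C, WDR17, ALG10B, FBXO5 and the shared promoter of FPGT and LRRIQ3, with differences from 0.67 to 0.80. SPCS3 encodes a subunit of the signal peptidase, COX7C one of cytochrome c oxidase, ALG10B a glycosyltransferase of N-glycan assembly and FBXO5 (EMI1) an inhibitor of the anaphase-promoting complex. Their adjusted p-values were at most 1.06e-05, and after adjustment for regional GC content the differences were 0.26 to 0.50. Then SPCS3, ALG10B and FBXO5 still passed, and MANEA, FPGT/LRRIQ3, COX7C and WDR17 did not (adjusted p from 0.0503 to 0.125). On the other side stood the promoters of SLC25A45, RPP25L, MYL6, MAP3K11 and KDM2A, with differences from -1.37 to -0.86. After the same adjustment RPP25L (-0.99) and MAP3K11 (-0.89) passed, and SLC25A45 (-0.47, adjusted p = 0.133), MYL6 (-0.54, adjusted p = 0.0607) and KDM2A (-0.37, adjusted p = 0.248) did not. MYL6 encodes a myosin light chain, MAP3K11 a kinase of the JNK pathway and KDM2A a histone demethylase that binds CpG islands. RPP25L had counts of 24 and 22 in the replicate 1 and 85 and 47 in the replicate 2 libraries.

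Gene lists were described by their promoter peaks. Over 22 lists, 664 promoter peaks were tested, of which 2.86% were higher in the replicate 1 and 6.02% in the replicate 2 libraries, against 5.77% and 5.15% of all coding promoter peaks. The median was below 0 in 19 lists and above 0 in 3, where all coding promoter peaks had -0.08. No list is singled out by these counts.

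Among lineage genes, the B cell precursor list (19 peaks, 0 higher in the replicate 1 and 1 in the replicate 2 libraries) had a median of -0.57, and -0.18 against neighbours within 500 kb. Its called peak was at PAX5, the B lineage commitment factor, at 14.2 and 14.7 CPM in the replicate 1 and 20.6 and 24.8 in the replicate 2 libraries (-0.64, SE 0.21, adjusted p = 0.0314). The summed level of the list was 164 and 195 CPM against 225 and 236. The myeloid list had a median of -0.62 over 7 peaks, all below 0, and its called peak was at SPI1 (PU.1), with counts of 28 and 34 against 87 and 36 (-0.79, adjusted p = 0.0171). Its summed level was 73.5 and 81.2 against 100.4 and 103 CPM. The T and NK cell list had -0.28, with 2 of 10 peaks called, at NKG7, a cytotoxic granule gene (-1.12), and TCF7, a T cell factor (-0.39). Its summed level was 156 and 150 against 172 and 181 CPM. The erythroid and megakaryocyte list had 2 of 6 peaks called, both at HBB and both also different by guide, and its summed level of 599 and 93.6 against 278 and 90.9 CPM followed them. After adjustment for regional GC content none of the first 3 lists had a called peak. Whether these marker levels have a part in the regional differences was not tested.

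Of the lists for cell states, the replication-dependent histones had 28 of 29 peaks below 0 and a median of -0.40. The median was -0.05 against neighbours and -0.36 after adjustment for regional GC content, with 3 peaks called before and after. The called peaks were at H4C4, H3C10 and H3C4 (-0.83, -0.83 and -0.89), and the genes lie in clusters on chromosome 6, so they share their surroundings. Cell cycle genes had a median of 0.03, with 22 of 44 peaks above 0. Those called were peaks at RRM2, a subunit of ribonucleotide reductase, CDC20, CDC6 and E2F1, all higher in the replicate 2 libraries. After adjustment for regional GC content none of these 4 passed, and the list had 3 peaks higher in the replicate 1 and 0 in the replicate 2 libraries, with a median of 0.11. Sterol synthesis had 2 of 27 peaks called, at MSMO1, a sterol oxidase (0.59, SE 0.11, adjusted p = 5.6e-05), and HMGCS1, which makes HMG-CoA (0.34, adjusted p = 0.0339), while 19 of the 27 peaks were below 0. The median of the list was -0.09, and 0.28 against neighbours within 500 kb. MSMO1 had counts of 783 and 683 in the replicate 1 and 679 and 408 in the replicate 2 libraries, and both also passed after adjustment for regional GC content (adjusted p = 0.00408 and 0.0156).

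Stress and signalling lists had calls on either side. In the interferon list 2 of 36 peaks were higher in the replicate 1 and 2 in the replicate 2 libraries. The first included one at IFIH1, an RNA sensor (0.41), and the second were at IFI6 and IRF7 (-0.77 and -0.65). Among heat shock genes CHORDC1, an HSP90 co-chaperone, had 2 peaks higher in the replicate 1 libraries (0.64 and 0.43), while HSPB1 and DNAJB1 were lower (-0.81 and -0.55). In the early response list DUSP6 and SPRY2, feedback inhibitors of MAPK signalling, were higher (0.42 and 0.37), and ETV4 and JUND lower (-1.20 and -1.17). Among integrated and unfolded protein stress genes DNAJB9 and SLC7A11 were higher (0.40 and 0.44) and DDIT4 and TRIB3 lower (-0.54 and -1.50). SLC7A11, a cystine transporter gene, differed by 0.84 with sgFLT3-DE-1 and by -0.06 with sgNT. The p53 list had 0 of 30 peaks called, and its 2 peaks of smallest p were at CDKN1A (-0.64, adjusted p = 0.0612) and GADD45A (0.29, adjusted p = 0.0841).

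Of the chromatin regulators, 4 of 51 peaks were higher in the replicate 1 libraries, at RAD21, TET2, HDAC2 and KDM6A, and 6 in the replicate 2 libraries, at KMT2D, MEN1, CREBBP, AFF1, SMARCA4 and EP300. RAD21, a cohesin subunit, had 101 and 93.6 CPM against 63.9 and 70.9 (0.54, SE 0.12, adjusted p = 0.00132). MEN1, which encodes the menin cofactor of MLL fusions, had 11.4 and 15.04 against 22.3 and 23.6 CPM (-0.81, SE 0.21, adjusted p = 0.00503). KDM6A, RAD21 and AFF1 also passed after adjustment for regional GC content. Of the MLL fusion and HOXA target list 1 of 66 peaks was called, at RUNX2 (-0.88, adjusted p = 0.0267), with a median of -0.06. After adjustment for regional GC content this list had 0 peaks higher in the replicate 1 and 4 in the replicate 2 libraries. Its median was then -0.14, while its median against neighbours within 500 kb was -0.04. Of all 18160 coding promoter peaks, 603 were higher in the replicate 1 and 66 in the replicate 2 libraries after the same adjustment. The peaks of this list belong to 18 genes, so peaks of a gene share their surroundings. The ribosomal protein, respiratory chain and proteasome lists had medians of -0.21, -0.21 and -0.20. Of the respiratory chain genes, COX7C and NDUFS1 (0.80 and 0.44) were higher in the replicate 1 libraries and COX5B and NDUFS8 (-0.76 and -0.57) in the replicate 2 libraries. The proteasome list had PSMD14 (0.36) on the first side and PSMB2, PSMB3 and PSMC4 (-1.78, -0.80 and -0.52) on the second, and the ribosomal protein list RPL18 on the second (-0.60).

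In the remaining lists few peaks were called, each higher in the replicate 2 libraries. Of all coding promoter peaks 5.77% were higher in the replicate 1 and 5.15% in the replicate 2 libraries. No direction is read from the few calls of these lists, which are named next. Among 34 NF-kB and inflammation peaks they were NFKB2, an NF-kB subunit (-0.72), and 2 peaks of the chemokine gene CCL3 (-0.66 and -0.97). Among 39 hypoxia and glycolysis peaks they were ALDOA and HK2 of glycolysis (-0.60 and -0.77). SGK1 and FKBP5 (-0.54 and -0.64) were called among 27 glucocorticoid response peaks, and ZNF443 (-0.77) among 28 peaks of chromosome 19 zinc finger genes. Of 26 stem and progenitor peaks 0 were called, with a median of -0.19. After adjustment for regional GC content, the hypoxia and glycolysis list had 1 peak called in each direction. The stem and progenitor list then had 1 higher in the replicate 1 libraries, and the glucocorticoid list 1 in the replicate 2 libraries.

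At the enhancer targeted by sgFLT3-DE-1, the number made little difference beside the guide. The peak of the guide site, chr13:28842815-28843351, in an intron of PAN3, had 66.1 and 74.7 CPM in sgFLT3-DE-1 replicates 1 and 2 and 126 and 140.1 in the sgNT libraries. Its difference by number was -0.16 (SE 0.12, adjusted p = 0.418), and by guide -0.92. The peak over the FLT3 start differed by -0.12 (SE 0.11, adjusted p = 0.549). The RBM45 promoter peak, at a locus that the study used as a negative control for the guide, was higher in the replicate 1 libraries, at 62.1 and 56.8 against 47.8 and 42.0 CPM (0.40, SE 0.14, adjusted p = 0.0448), and did not pass after adjustment for regional GC content (0.25, adjusted p = 0.332).

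Each library was also left out in turn, in fits with the number as the only term. These fits lack the guide and leave 1 library with one of the numbers, so their calls are not counted. Dropping the guide alone, with all 4 libraries, gave 2249 calls in place of 7338. In the 4 fits with a library left out, the median of the GC-poorest quintile lay between 0.32 and 0.51. That of the GC-richest lay between -0.59 and -0.34.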

How the data were processed

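The authors deposited raw counts per consensus peak for 4 ATAC-seq libraries and a list of the same 139872 peaks, on hg19 (GRCh37). Trimming was by cutadapt and alignment by Bowtie2 in the methods, whereas the submitters' processing notes name BWA, MACS2 2.1.1.20160309, bedtools 2.24.0, SAMtools 1.2 and Trim Galore 0.4.4. The paper's reporting summary describes clipping the start of each read against GC bias and calling peaks on short, nucleosome-free fragments. How these steps bear on the differences by GC content was not tested. Which fragments were counted and any Tn5 offset of the reads are not given in the sources used here. Their effect on peaks of 179 bp median length was not tested.

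Counts were tested with edgeR 4.0.16 in R 4.3.3 (filterByExpr with a minimum count of 10 and a minimum total of 15, TMM factors, quasi-likelihood F test of the replicate coefficient beside the guide, Benjamini-Hochberg adjustment over 82558 peaks, FDR 0.05). Standard errors are the absolute log2 difference over the square root of F. Within-guide differences are log2 CPM with a prior count of 2. The test was also run on counts simulated independently for each peak from the fitted means and dispersions. These counts hold no regional structure, so they cannot show how far the calls in the real libraries hold. Promoters are peaks within 1 kb of a protein-coding start in GENCODE, and CpG-rich means an observed over expected CpG ratio of at least 0.6 and a GC content of at least 50%. Alternatives were DESeq2 1.42.0, limma-voom (limma 3.58.1), other factors, offsets and filters, thinning, and leaving out libraries. Offsets on regional GC content were added after the data were seen.

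The comparison, its gene lists and its tests were chosen with earlier results of these data known. Named peaks are the 10 of smallest p in each direction, the 12 promoter peaks of smallest p that passed with the same sign in both guides, the 2 of smallest p per gene list, and peaks at FLT3, PAN3 and RBM45. Further called members of a list, and the windows, were chosen after their values were seen. For printed sequences, peaks at transcribed starts or different by guide were replaced by later ranks, also after their values were seen. Some named peaks and 1 sequence are not reported here. The intervals and errors cover these libraries only. Low counts are limited by counting error, and the depth was 2683477 to 4831164 counts per library.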

Additional observations from a re-analysis of the deposited data

Results flagged for a closer look

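Some differences by replicate number had opposite signs with the 2 guides. Each guide has 1 library of each number, so the difference between the guides was not tested, and a sign can turn on a value close to 0. Values are the sgFLT3-DE-1 difference minus the sgNT difference on the log2 scale. CpG-rich coding promoters had -0.11 (from -0.10 and 0.01), the decile of highest peak GC content -0.16, the middle quintile of gene density -0.029 and that of regional GC content -0.031. Of the motif classes, SP/KLF had -0.14, NRF1 -0.066 and CREB/ATF -0.051. Of the gene lists, interferon response had -0.27 (from -0.02 and 0.25), chromatin regulators -0.19, cell cycle -0.14 and MLL fusion and HOXA targets -0.12. A peak 954 bp from a PAN3 start had 1.09 (from 0.25 and -0.84), with counts of 43 and 50 in the sgFLT3-DE-1 libraries and 28 and 43 in the sgNT libraries.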

How the results depend on the processing

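Of 7338 peaks called by number, other settings gave 1302 (offsets on regional GC content), 1103 (regional, then peak GC content), 3784 (mean count of at least 50, 17580 tested), 1 (DESeq2), 2249 (no guide covariate), 4235 (thinned to the smallest total, 68468 tested), 2542 (FDR 0.01), 2576 (a log2 difference of at least 1 as well) and 86 to 5647 (leaving out each library). Fewer samples or peaks enter some of these, and the cause was not tested for the others. Relative log expression factors, total counts, loess offsets over mean count or on peak GC content, no filter and limma-voom gave 5134 to 7365. Offsets on regional GC content changed the split to 1016 higher and 286 lower.

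The coding promoter median of -0.08 became 0.041 with offsets on peak GC content, 0.059 with those on regional and 0.018 with both, and -0.17 to 0.021 leaving out each library. The median of the GC-poorest regions became 0.034 and 0.042 under the latter 2 offsets. That of the GC-richest became -0.34 under those on peak GC content, -0.029 and -0.040 under the latter 2, and -0.33 with sgNT alone. The latter 2 offsets were fitted to regional GC content, which brings both medians near 0 by construction. The decile of highest peak GC content turned from -0.10 to 0.10 with regional offsets, and to 0.051 without sgFLT3-DE-1 replicate 1 (-0.22 to 0.051 over libraries left out). Of 35 named called peaks, 35 kept their sign with each offset, factor and tool, but 25 passed with regional offsets, 22 with both, 32 with loess over mean count (EEF1A1 1.22 to 0.32) and 1 with DESeq2. Leaving out sgFLT3-DE-1 replicate 1 turned EEF1A1 to -0.065 (highest 2.67), HBB to -1.35 (highest 2.80), RNU6-1 to -0.32 (highest 2.01) and TBC1D5 to -0.23 (highest 3.75), in fits without the guide, by which these peaks differ.

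By guide, the replicate block gave 74 peaks and the fit lacking it gave 2. The libraries share only a number, and the 2 within-guide differences had a Pearson correlation of 0.40 over peaks. With 1 residual degree of freedom and low counts at many peaks, small differences were not detectable at this depth.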
